A study of Mus musculus with 9 samples.

Results

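Mx1, Mx2, Ifit1, Irgm1, Isg20 and Stat2 are 6 genes that interferon induces in mouse cells, and their RNA levels were followed here in lungs ventilated at high pressure, in lungs after injected lipopolysaccharide (LPS) and in control lungs. They were found by their gene symbol in the annotation of the array, which gave 1 probe for each, 6 of 10012 probes in all. The genes were chosen from an interferon list by their differences of overventilation and of LPS from control on these same arrays. These differences are therefore given as a description, with no test. They are not the smallest p of all interferon genes here, since Irgm2 and Herc6, described below, had a smaller limma p than some of the 6. Of the 10012 probes, 5710 could be tested, and all 6 were among them.

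The series profiled mouse lung tissue on 9 expression arrays in 3 groups of 3. In the overventilation group, lungs were mechanically ventilated for 3 h with 25 cmH2O of pressure. The LPS group had an injection of E. coli lipopolysaccharide (O127:BO serotype, 3 mg/kg), with no time after injection stated, and the third is labelled control, with no word on whether its animals were ventilated at a lower pressure or not at all. The labels used here state neither strain, age nor sex of the mice, nor whether replicates were separate animals, so every error below measures a spread between samples that may be technical. Each deposited value relates a probe to the geometric mean of its 3 control arrays. Values are given below as log2 ratios, with the control mean at 0. A value of 1 is therefore a doubling over the control mean, and the level of one gene cannot be set against that of another. Values of single arrays stand in the order of replicates 1, 2 and 3.

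Interferons bind receptors at the cell surface and, through the kinases JAK1 and TYK2, activate transcription factors, STAT2 among them. STAT2 and IRF9 are parts of a complex that binds the interferon-stimulated response element (ISRE) in the promoters of antiviral genes. Lipopolysaccharide is sensed by Toll-like receptor 4, whose adaptor TRIF leads to the production of interferon beta, and RNA or DNA released from damaged cells can start interferon production through other sensors. In the lung such genes are known above all from the defence against respiratory viruses.

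The promoters of 3 of the genes are shown because they carry the ISRE core. The core itself was not used to choose the genes, but they came from an interferon list, so its presence describes that choice. The windows run from 250 bases before to 50 after the start of the gene in RefSeq (build GRCm38.p6), and 4 of the 6 genes had an entry. The letters searched were GAAA, NN and GAAA in a row, on both strands, so that TTTC, NN and TTTC in a row count as well, and matches stand in capitals, where overlapping matches run together. The Ifit1 window is chr19:34640639-34640938 on the plus strand, that of Irgm1 chr11:48871371-48871670 on the minus strand and that of Stat2 chr10:128270248-128270547 on the plus strand.
Ifit1: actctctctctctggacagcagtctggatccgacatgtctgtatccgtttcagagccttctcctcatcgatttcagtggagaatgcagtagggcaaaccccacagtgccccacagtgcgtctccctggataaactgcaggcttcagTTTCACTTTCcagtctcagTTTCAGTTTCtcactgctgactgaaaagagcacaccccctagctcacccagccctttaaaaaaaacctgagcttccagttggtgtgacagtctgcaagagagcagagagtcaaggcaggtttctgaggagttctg
Irgm1: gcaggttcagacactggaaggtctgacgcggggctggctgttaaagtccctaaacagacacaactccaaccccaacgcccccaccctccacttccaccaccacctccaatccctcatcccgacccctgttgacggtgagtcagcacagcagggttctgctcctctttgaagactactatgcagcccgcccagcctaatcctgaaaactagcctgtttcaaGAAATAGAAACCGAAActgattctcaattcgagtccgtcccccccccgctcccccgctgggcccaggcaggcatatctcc
Stat2: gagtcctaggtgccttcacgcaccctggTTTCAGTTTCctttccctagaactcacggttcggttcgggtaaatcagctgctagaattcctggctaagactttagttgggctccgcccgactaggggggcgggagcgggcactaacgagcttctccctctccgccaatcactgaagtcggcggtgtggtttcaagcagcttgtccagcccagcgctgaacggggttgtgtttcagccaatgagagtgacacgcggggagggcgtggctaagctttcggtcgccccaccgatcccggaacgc

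The Ifit1 window held 2 separate matches, which begin 104 and 85 bases before the gene start. In Irgm1 there were 2 overlapping matches, in a stretch that begins 30 bases before the start, and in Stat2 1 match, which begins 222 bases before it. None of the 3 windows of Isg20 held the core. For comparison, the core was found in 3.44% of all 32851 promoter windows, or in at least 1 window of 3.99% of 27025 genes.

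Among the 6 genes, the effectors and GTPases are described first and the transcription factor last. Mx1 and Mx2 encode dynamin-like GTPases that block the replication of viruses, in the mouse Mx1 from the nucleus and Mx2 from the cytoplasm, and many laboratory mouse strains are known to carry defective copies of Mx1. Mx1 had log2 ratios of 1.68, 1.70 and 1.24 on the overventilation arrays, 1.23, 3.24 and 1.62 on the LPS arrays and -0.87, 1.22 and -0.35 on the control arrays. The lowest treated arrays lay only 0.02 (overventilation) and 0.01 (LPS) above control array 2, so the groups did not overlap but nearly met. The mean of Mx1 was 1.54 ± 0.26 (SD, n = 3) after overventilation, 2.03 ± 1.07 after LPS and 0 ± 1.09 in controls, and without LPS array 2 the LPS mean was 1.43 above control.

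Mx2 was the gene with the largest difference from control among the 6 after overventilation. It had log2 ratios of 3.8, 2.34 and 3.12 on the overventilation arrays, 1.59, 2.94 and 1.63 on the LPS arrays and 0.85, -1.15 and 0.30 on the control arrays. Every treated array lay above every control array, by at least 1.49 after overventilation and 0.74 after LPS. Means were 3.08 ± 0.73 (SD, n = 3) after overventilation, 2.05 ± 0.77 after LPS and 0 ± 1.03 in controls. Control array 2, the highest control for Mx1, was the lowest control for Mx2.

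Ifit1 encodes a protein that binds viral RNA lacking the cap methylation of host messages and keeps it from being translated. It had log2 ratios of 1.91, 2.63 and 2.10 on the overventilation arrays, 1.28, 3.28 and 2.51 on the LPS arrays and -0.57, 1.18 and -0.61 on the control arrays. All treated arrays stood above all controls, LPS array 1 by only 0.10 over control array 2. The means, 2.21 ± 0.37 (SD, n = 3) after overventilation, 2.36 ± 1.00 after LPS and 0 ± 1.03 in controls, correspond to 4.64 and 5.12 times the control mean.

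Isg20, which encodes an exonuclease that degrades single-stranded RNA, had the smallest difference among the 6 after overventilation and also the smallest spread within the control group. Its log2 ratios were 0.76, 1.38 and 0.87 on the overventilation arrays, 0.89, 1.92 and 1.25 on the LPS arrays and 0.44, -0.12 and -0.32 on the control arrays. Neither treated group overlapped with the controls. The mean was 1.00 ± 0.33 (SD, n = 3) after overventilation, 1.35 ± 0.52 after LPS and 0 ± 0.40 in controls.

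Irgm1 encodes an immunity-related GTPase that regulates other GTPases of its family at the membranes around intracellular pathogens, and it is known mainly as a target of interferon gamma. It had log2 ratios of 1.76, 2.45 and 2.97 on the overventilation arrays, 0.51, 2.58 and 1.42 on the LPS arrays and -0.84, 1.08 and -0.24 on the control arrays. The overventilated lungs lay at least 0.68 above the controls, whereas LPS array 1 lay below control array 2, so these 2 groups overlapped. Means were 2.39 ± 0.61 (SD, n = 3) after overventilation, 1.5 ± 1.04 after LPS and 0 ± 0.98 in controls. Without LPS array 2 the LPS difference was 0.96.

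Stat2 encodes a subunit of the interferon-activated complex, and interferon also raises its own RNA. It had log2 ratios of 1.25, 1.31 and 2.86 on the overventilation arrays, 0.31, 0.98 and 1.31 on the LPS arrays and -0.96, 0.56 and 0.39 on the control arrays. All overventilation arrays lay above all controls, by at least 0.68, with array 3 far above the other two, and the LPS and control groups overlapped. The mean was 1.81 ± 0.91 (SD, n = 3) after overventilation, 0.86 ± 0.51 after LPS and 0 ± 0.83 in controls. Without overventilation array 3 the difference of Stat2 from control was 1.28, and without control array 1 that after LPS was 0.38.

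**Figure D1:**
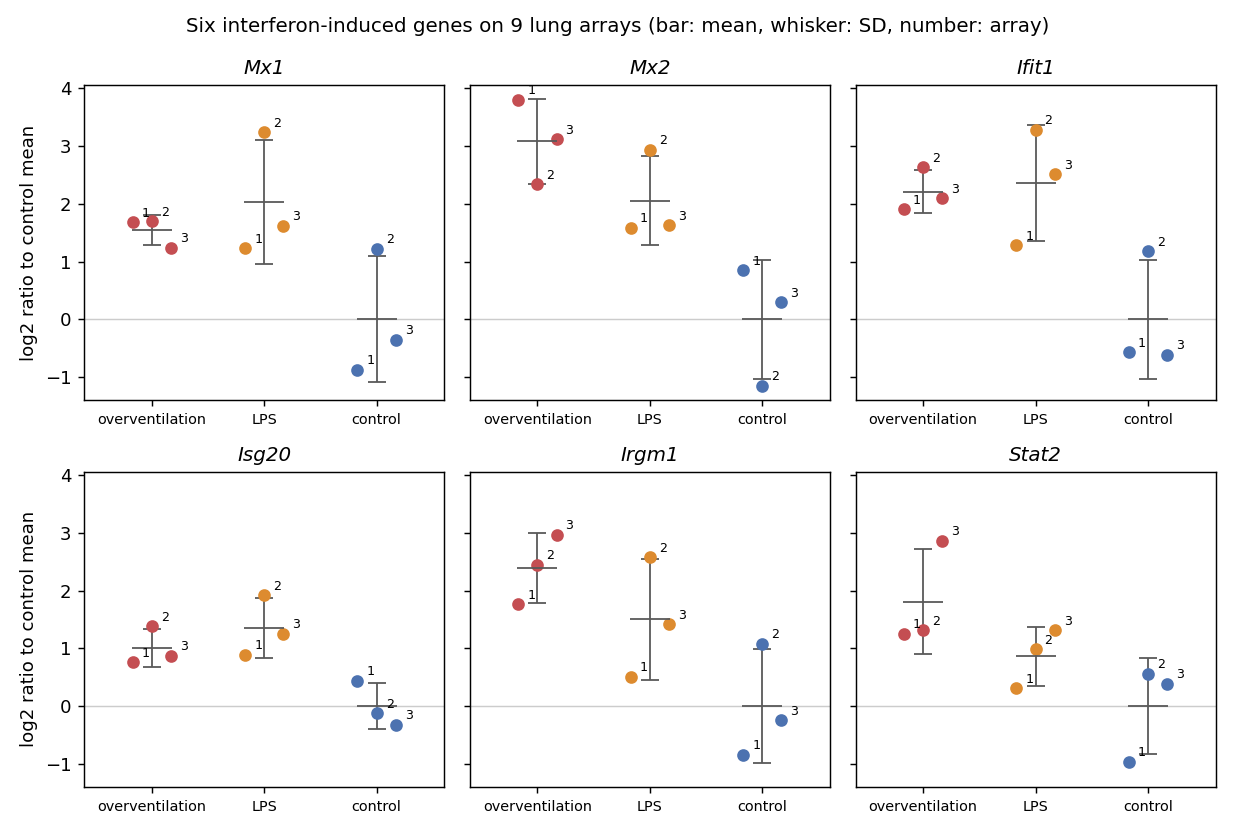
Log2 ratio to the control mean (vertical axis) of the 6 genes on each array, with overventilation, LPS and control from left to right. Points are arrays with their replicate number, horizontal bars are group means and whiskers 1 SD (n = 3). All overventilation points lie above the controls in every panel, and LPS points do so for Mx1, Mx2, Ifit1 and Isg20.

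Overventilated and control lungs thus did not overlap at 6 of 6 genes, a state that 9.12% of all tested probes showed in the same direction. LPS and control lungs did not overlap at 4 of 6, the exceptions being Irgm1 and Stat2, against 2.24% of all probes. The genes were picked on these differences, so nothing is read from either count. With the arrays forced to one distribution (quantile normalization) the counts were 3 of 6 for overventilation, namely Mx2, Irgm1 and Stat2, and 2 of 6 for LPS, namely Mx2 and Isg20. In that setting 4.71% of all probes lay above control without overlap after overventilation and 3.56% after LPS. The LPS count was 6 of 6 without LPS array 1, where the share of all probes rose to 12.5%. It was 5 of 6 without control array 2, a setting whose share of all probes is given with the pathway counts below. Set against the control array of the same number, the LPS array was higher in all 3 pairs at 6 of 6 genes. The differences were 1.35, 1.5 and 1.66 for Irgm1 and 1.27, 0.42 and 0.92 for Stat2. The overventilation array was likewise higher in all 3 pairs at 6 of 6 genes. The share of all probes in this state was not computed, and no label pairs the arrays, so nothing is read from these counts either. In whole tissue, a larger number of cells that make an RNA and more of it per cell cannot be told apart.

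The fitted differences from control were taken from limma, a linear model over all tested probes in which the 9 arrays share 1 estimate of spread per gene. After overventilation they ran from 1.00 with a standard error of 0.37 for Isg20 to 3.08 with a standard error of 0.60 for Mx2, or 2.01 to 8.47 times the control mean. After LPS they ran from 0.86 with a standard error of 0.56 for Stat2 to 2.36 with a standard error of 0.60 for Ifit1, or 1.82 to 5.12 times the control mean. The distance of these genes from the floor of the arrays is unknown, and with an offset of the highest floor added in its place the differences were smaller, at 0.51 to 2.23 after overventilation and 0.37 to 1.54 after LPS. By size the order was Mx2, Irgm1, Ifit1, Stat2, Mx1 and Isg20 after overventilation. After LPS it was Ifit1, Mx2, Mx1, Irgm1, Isg20 and Stat2, and in both orders the 95% intervals of neighbouring genes overlapped. The 2 comparisons share the control arrays, so a control array that is high or low moves both.

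Set directly against each other, overventilation and LPS gave overlapping values at all 6 genes. The limma differences, overventilation minus LPS, were 1.03 for Mx2, with a 95% interval of -0.32 to 2.38, 0.94 for Stat2, with an interval of -0.30 to 2.19, and 0.89 for Irgm1, with an interval of -0.51 to 2.29. On the other side were Mx1 at -0.49, with an interval of -1.89 to 0.90, Isg20 at -0.35, with an interval of -1.18 to 0.49, and Ifit1 at -0.14, with an interval of -1.5 to 1.21. Every interval includes 0 and also a difference of 1 in size, a doubling or a halving, so with all 9 arrays both responses are neither separated at any of the genes nor shown to be alike. Without overlap were 5.71% of all tested probes on the higher side and 5.46% on the lower.

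**Figure D2:**
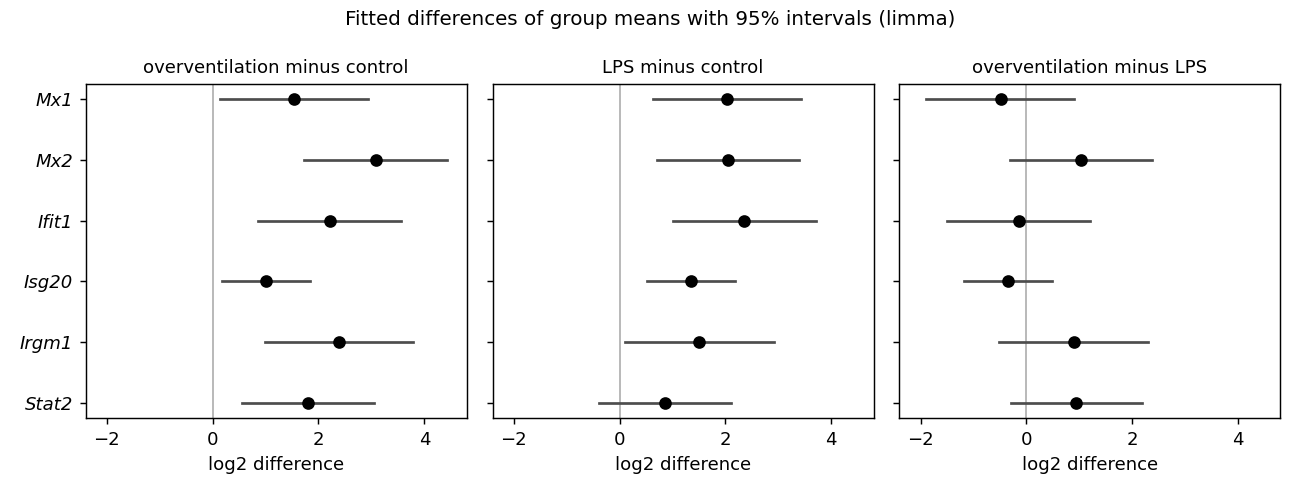
Fitted log2 differences of group means (points) with 95% intervals (lines) for the 6 genes, in 3 panels for overventilation minus control, LPS minus control and overventilation minus LPS. In the last panel Mx2, Irgm1 and Stat2 lie right of 0 and Mx1, Ifit1 and Isg20 left of it, each with an interval that includes 0.

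The comparison of both treatments depended on single arrays. Without LPS array 2, the highest array of all 9 for Mx1, Ifit1 and Isg20, the difference of Ifit1 turned to 0.32 and that of Mx1 to 0.11, and Isg20 stood at -0.06. In the same setting the difference of Mx2 was 1.48, with a 95% interval of 0.10 to 2.85, and that of Irgm1 1.43, with an interval of 0.07 to 2.78. Both intervals left out 0, and 2 of 6 genes no longer overlapped, where 13.4% of all probes lay higher without overlap. Without overventilation array 1 the difference of Ifit1 was 0.01. Leaving out LPS array 3 (8.51% of all probes higher without overlap) or overventilation array 1 (14.3%) ended the overlap of 1 gene, Stat2. In the second case Stat2 nearly tied, at ratios of 2.49 on overventilation array 2 and 2.48 on LPS array 3. Leaving out overventilation array 2 ended the overlap of Mx2 on the higher side (11.4% of all probes) and of Isg20 on the lower. Isg20 nearly tied there, at ratios of 1.83 on overventilation array 3 and 1.85 on LPS array 1. The share of all probes on the lower side is not given for this setting, so nothing is read from Isg20. The mean log2 ratio over the 6 genes was 1.86, 1.97 and 2.19 on the overventilation arrays, 0.97, 2.49 and 1.62 on the LPS arrays and -0.33, 0.46 and -0.14 on the control arrays. The overventilation arrays were thus close to one another, and the LPS arrays spanned a wider range that took in all 3 of them. The median of all tested probes lay between -0.12 and 0.09 on every array.

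The 6 genes did not move as one block within groups. Over the 9 arrays the Pearson correlations of their 15 pairs ran from 0.36 to 0.95 with a median of 0.67, values to which the differences between groups contribute by the choice of the genes. After each group's mean was taken off, the correlations ran from -0.30 to 0.90 with a median of 0.33. Mx1, Ifit1 and Irgm1 formed a close trio, at 0.90 for Mx1 and Ifit1, 0.89 for Ifit1 and Irgm1 and 0.84 for Mx1 and Irgm1. Mx2 stood apart from them, at -0.14 with Mx1, -0.30 with Ifit1 and -0.23 with Irgm1. The points of each pair come from the same arrays, and array 2 of each group was the highest of its group for Ifit1.

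By Pearson correlation over the 9 arrays, the 8 genes most like the mean of the 6 were Herc6 (0.972), Pawr (0.953), Gm8989 (0.951), Zbtb43 (0.949), Cxcl11 (0.942), Akap12 (0.933), Daxx (0.927) and Plk2 (0.923). Herc6, a ubiquitin ligase that attaches the interferon-induced modifier ISG15 in mice, had a log2 difference from control of 1.93 after overventilation and 1.69 after LPS. The interferon-induced chemokine gene Cxcl11 had 2.53 and 1.81, and the gene of the transcriptional corepressor Daxx 2.12 and 1.59. The scaffold protein gene Akap12 (3.31 and 1.92) and the kinase gene Plk2 (2.14 and 1.14) were also among them. Pawr had 1.14 and 0.82, Gm8989 1.32 and 1.01 and Zbtb43 1.04 and 0.78. The 6 genes were chosen for their differences from control, so genes that follow their mean differ from control as well. Nothing is therefore read from these correlations and differences.

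The rest of the interferon pathway was taken from 5 lists of effectors, GTPases, sensors, signalling and antigen processing genes and 1 of interferons, in which 89 genes other than the 6 had a probe and 62 could be tested. No gene of these lists passed limma at an adjusted p under 0.05 in any of the 3 comparisons, as was true of all 5710 probes (0%). After overventilation 14 of the 62 genes (22.6%) lay above all controls, against 9.12% of all tested probes, and 2 lay below them, Sp100 and Psmb10, against 10.5%. After LPS 4 of the 62 (6.45%) lay above all controls, against 2.24%, and none below, against 4.08%. At an unadjusted p under 0.05, 11 were higher and 4 lower after overventilation, where 6.2% and 8.69% of all probes were, and 5 were higher and none lower after LPS, where 0.998% and 1.07% were. The median log2 difference from control over the 62 genes was 0.50 after overventilation and 0.46 after LPS, beside -0.01 and -0.05 over all tested probes.

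These counts moved with single arrays and with the scaling. Without control array 2 they were 31 of 62 after overventilation (17% of all probes) and 23 of 62 after LPS (9.3%), without LPS array 1 the LPS count was 19 (12.5%), and with quantile normalization they were 8 (4.71%) and 7 (3.56%). Between overventilation and LPS, 2 of the 62 genes lay higher without overlap (3.23%, against 5.71% of all probes) and 4 lower (against 5.46%), with a median of 0.05 beside 0.07 over all probes. At an unadjusted p under 0.05, 1 was higher and 7 lower, where 3.57% and 5.94% of all probes were. Of the 62 genes, 6 had 2 or more arrays at the floor of the measurement, the lowest value an array reports, and of the 27 not tested 12 were at the floor on all 9 arrays, among them Rsad2, Irf3 and Ifnar2.

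Of the interferon-inducible GTPases other than Mx1, Mx2 and Irgm1, 6 of 8 were tested, and 3 lay above all controls after overventilation (9.12% of all probes) and none after LPS (2.24%). Irgm2, a relative of Irgm1, had a log2 difference from control of 2.22 after overventilation (SE 0.58, limma adjusted p = 0.193) and 1.71 after LPS (SE 0.58, adjusted p = 1). Igtp had 2.22 after overventilation, with 3.79 on array 3 and 1.62 and 1.24 on the others, and 0.99 after LPS. Control arrays 2 and 3 and LPS array 3 were at the common floor (-0.24) for Igtp, so its differences are measured against floored values. Iigp1 had 2.17 after overventilation and 0.08 after LPS, where array 2 stood at -1.87 and arrays 1 and 3 at 1.01 and 1.08. For Tgtp1 the values were 1.02 and 0.94 and for Ifi47 0.50 and 0.51, with overlap in both comparisons.

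Among antiviral effectors 19 of 27 were tested, of which 6 lay above all controls after overventilation (9.12% of all probes) and 3 after LPS (2.24%). Herc6 was the one gene of the list without overlap in both comparisons, with an adjusted p of 0.193 after overventilation and 1 after LPS by limma. Rtp4, a chaperone of membrane receptors, had a log2 difference of 1.98 after overventilation and 0.97 after LPS, Slfn2, a regulator of immune cell quiescence, 1.19 and 0.75, and the nuclear body protein gene Pml 1.28 and 0.95. Eif2ak2, which encodes the RNA-dependent kinase PKR, had 0.14 after overventilation and 1.36 after LPS (overventilation minus LPS -1.22, SE 0.45, limma adjusted p = 0.494). Its overventilation arrays 1 and 3 and control array 1 were at the common floor (-0.33), so these differences too rest on floored values. Trim30a had 1.00 and 1.5 and the ubiquitin-like modifier gene Isg15 0.50 and 0.73, both genes with overlap in both comparisons. Ifit2 and Ifit3 are relatives of Ifit1. Ifit2 was at the common floor on all 3 controls, on overventilation array 3 and on LPS array 3, so its differences of 0.22 after overventilation and 0.36 after LPS do not show how far it changed. Ifit3 had 1.87, 0.57 and 0.70 on the overventilation arrays, 0.95, -3.89 and 1.53 on the LPS arrays and -0.06, 0.30 and -0.23 on the control arrays, so 1 low value decided its LPS mean.

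Upstream of the 6 genes, 11 of 18 sensors, adaptors and interferon regulatory factors were tested, with a median log2 difference of -0.26 after overventilation and 0.32 after LPS. They went both ways, with 5 of 11 higher than control after overventilation and 6 after LPS, where the medians of all tested probes were -0.01 and -0.05. By array the median of the list was -0.01, 0.48 and -0.25 after overventilation, 0.55, 0.63 and 0.35 after LPS and 0.00, 0.23 and -0.23 in controls. Above all controls lay 3 after overventilation (9.12% of all probes) and 0 after LPS (2.24%). Myd88, an adaptor of Toll-like receptors, had 2.56 after overventilation and 1.72 after LPS, with control array 2 at 1.55, and the double-stranded RNA sensor gene Ifih1 had 1.19 and 0.79. Irf1 stood at 0.91 ± 0.24 (SD, n = 3) after overventilation, 0.34 ± 0.60 after LPS and 0 ± 0.61 in controls. Irf7, the main amplifier of interferon alpha production, had 0.81 after overventilation and -0.21 after LPS, where array 2 stood at -2.34. The LPS co-receptor gene Cd14 had -1.13, 0.15 and -2.35 on the overventilation arrays, -0.29, 1.46 and 0.90 on the LPS arrays and 0.07, 0.05 and -0.12 on the control arrays. It was one of 9 of the 62 genes that were lower on overventilation arrays 1 and 3 than on all other arrays. The share of all probes with this pattern was not computed, so the 9 are not read as a trait of the pathway.

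Of 18 receptor and JAK-STAT genes other than Stat2, 12 were tested, with medians of -0.23 after overventilation and 0.49 after LPS. Higher than control were 5 of 12 after overventilation and 10 after LPS, where the medians of all tested probes were -0.01 and -0.05. By array the median of the list was -0.44, 0.28 and -0.19 after overventilation, -0.13, 0.81 and 0.24 after LPS and -0.12, 0.25 and -0.11 in controls. Above all controls lay 2 after overventilation (9.12% of all probes) and 1 after LPS (2.24%). Irf9, the partner of Stat2, had a log2 difference of 0.80 after overventilation, with no overlap with controls, and 0.89 after LPS, where array 3 stood at 0.00 between the controls. The feedback inhibitor gene Socs3 had 1.28 and 0.59, and its relative Socs1 0.91 and 1.26. Stat4 had -0.32 and 0.79 and lay lower after overventilation than after LPS on every array (difference -1.11, SE 0.36, limma adjusted p = 0.494). Ptpn2, a phosphatase that ends JAK-STAT signalling, had -3.34, 0.27 and -4.49 on the overventilation arrays, one of the 9 genes low on arrays 1 and 3, and a difference of 0.10 after LPS. Ptpn11 had -1.15 and -0.43.

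Interferon genes themselves gave little to measure. Ifng was at the floor on all 9 arrays, so that only a bound is known for it, and Ifna7 stood at -0.09 ± 0.65 (SD, n = 3) after overventilation, -0.40 ± 0.76 after LPS and 0 ± 0.63 in controls. No other interferon gene was analysed here.

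Antigen processing genes, which interferon gamma in particular induces, had 13 of 16 members tested, none above all controls after overventilation (9.12% of all probes) or after LPS (2.24%). Their median log2 difference was 0.36 after overventilation and 0.38 after LPS. Beta-2 microglobulin (B2m) had 0.85 and 0.43, the invariant chain gene Cd74 1.41 and 0.59, Tap2 0.19 and 0.59 and the proteasome activator gene Psme2 0.86 and 0.70. The immunoproteasome subunit genes Psmb9 and Psmb10 lay on the other side after overventilation, at -1.60 (SE 0.61) and -1.35 (SE 0.45), and near control after LPS, at 0.25 and -0.02, with limma adjusted p of 0.266 and 0.221 after overventilation. Both belong to the 9 genes low on overventilation arrays 1 and 3. H2-Aa had -0.15 and -1.22, the second of these with -4.88 on LPS array 2.

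**Figure D3:**
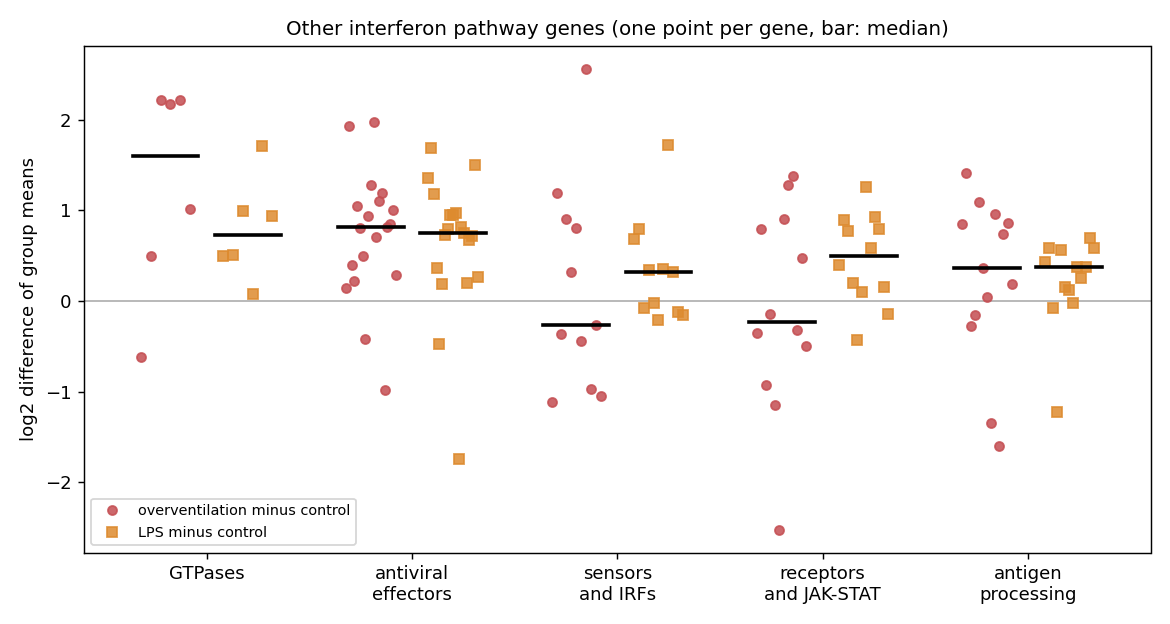
Log2 difference from control (vertical axis) of the other interferon pathway genes in 5 lists, with overventilation (circles) left of LPS (squares) in each. Each point is a gene and each bar the median of its list. In the lists of sensors and of receptors the medians are below 0 after overventilation (-0.26 and -0.23) and above 0 after LPS (0.32 and 0.49). This did not hold on every array, since the medians on overventilation array 2 were 0.48 and 0.28.

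**Figure D4:**
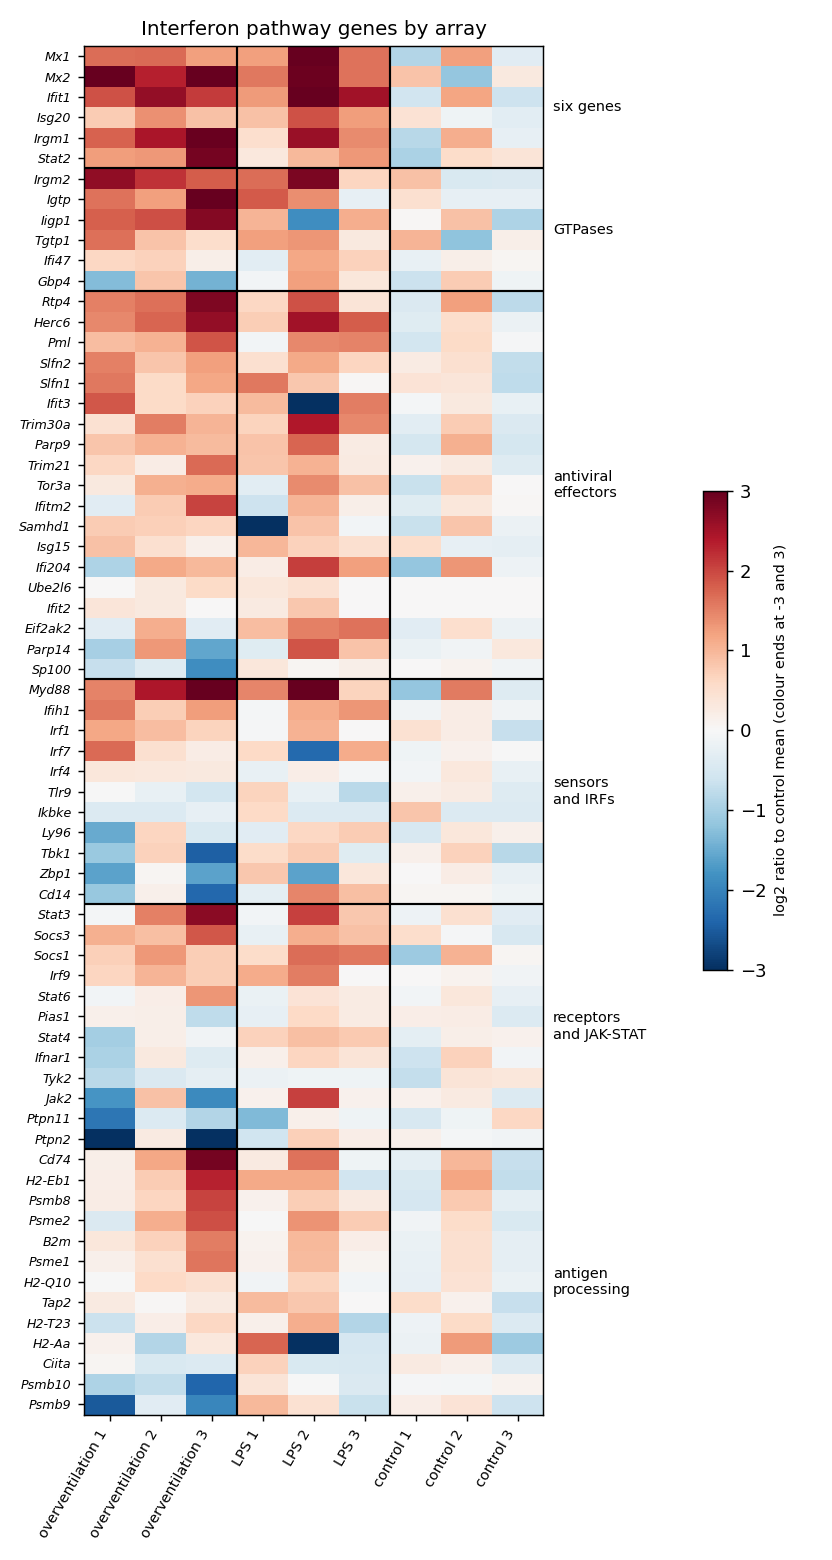
Log2 ratio to the control mean of the 6 genes (top block) and of 61 other tested pathway genes in 5 lists, 1 row per gene and 1 column per array, from overventilation through LPS to control. Red is above and blue below the control mean, and the scale ends at -3 and 3. Single dark blue fields on LPS array 2 (Ifit3, Irf7 and H2-Aa) and on LPS array 1 (Samhd1, -5.97) and the blue pairs on overventilation arrays 1 and 3 (Ptpn2, Cd14, Psmb9) stand out.

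The ISRE core of the promoters shown above was also looked up for the 62 genes, since it does not depend on the arrays. A window was given for 47 of them, and 16 of these (34.0%) held the core, against 3.99% of all genes. The lists hold many genes already known to be induced by interferon, so this share describes the lists. Irgm2, Igtp, Tgtp1, Ifit3, Isg15, Eif2ak2 and Trim30a held it. Herc6, the gene most like the 6, was not among the 16, and whether a window was given for it is not stated here.

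Markers of lung epithelium and of blood cells were set beside the 6 genes. Of 8 markers of alveolar type II cells 7 could be tested, among them Sftpc, Sftpd and Abca3, with a median log2 difference from control of -0.03 after overventilation and 0.07 after LPS. They did not move together, since after overventilation Napsa stood at -1.89, -2.53 and -1.98, below all controls, and Sftpd at 0.61, 0.89 and 4.12. Of 10 neutrophil markers 5 were tested, and their median level lay between -0.91 and -0.59 on the overventilation arrays, between -0.92 and 0.25 on the LPS arrays and between -0.37 and 0.50 on the control arrays, with Mpo and Elane at the floor on 8 arrays and Mmp9 on 9. Of 9 monocyte and macrophage markers 5 were tested, with medians of -0.64, 0.27 and 0.85 on the overventilation arrays, -0.10, 0.83 and -0.25 on the LPS arrays and 0.07, 0.13 and -0.12 on the control arrays. Adgre1 was at the floor on 9 and Itgam on 8 arrays, and the tested markers differed after overventilation by 2.56 for Lyz2, with 4.77 on array 3, 0.36 for Siglecf, 0.29 for Mrc1, -1.10 for Chil3 and -1.11 for Cd14. The T and NK cell list had medians of -0.36 after overventilation and 0.07 after LPS over 5 of 14 markers, with Cd3e, Cd8a, Prf1 and Nkg7 at the floor on all 9 arrays. Plasmacytoid dendritic cells, known as strong producers of type I interferon, had 2 markers, both tested. Tcf4 stood at -5.04, -0.18 and -3.42 on the overventilation arrays, -1.14, 0.79 and 0.35 on the LPS arrays and -0.60, 0.10 and 0.50 on the control arrays. Tcf4 was thus lower on overventilation arrays 1 and 3 than on all other arrays, the pattern left unread for the 9 pathway genes above. Ly6d was at the common floor on overventilation arrays 2 and 3, LPS array 2 and control array 1. Nothing on the number of these cells is read from the 2 markers. Alveolar type I markers had a median of 2.96 on overventilation array 3, the highest overventilation array for Irgm1 and Stat2, against 0.32 and 0.73 on the other two. Adipose markers, 3 of 4 tested, had medians of -0.36, -2.21 and -1.19 on the overventilation arrays, -2.12, -5.28 and -1.93 on the LPS arrays and 0.75, 0.93 and -1.70 on the control arrays, and 2 of the 3 genes lay below all controls after LPS (4.08% of all probes). LPS array 2, the highest LPS array for 5 of the 6 genes, was also the highest LPS array in the macrophage medians and in those of B cell markers (0.49). The macrophage markers did not share this order. Of the LPS arrays, Mrc1 and Cd14 were highest on array 2, Lyz2 and Chil3 on array 1 and Siglecf on array 3. The part of any of these cells in the values of the 6 genes was not tested.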

How the data were processed

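RNA of mouse lung tissue was measured on 9 arrays. The values deposited by the authors are ratios on a linear scale, each relative to the controls' geometric mean, as tested on the values (largest deviation of the control mean from 0 on the log2 scale 2.5e-09). The maker of the array, its labelling, background correction and scaling are not stated in these sources. At 4690 probes 2 or more arrays held the lowest value an array reports (tolerance 1e-06 on the log2 scale). Such values, and any others under it, were set to a common floor, the largest of the 9 (a ratio of 2.222), then recentred on the controls. Tests were run on the 5710 probes with at least 3 arrays over this floor, or with fewer than 2 arrays at any floor. None of the 6 genes had 2 arrays at a floor, so their distance from it is unknown, and a difference near it would come out too small. The floor was highest on overventilation array 3, with 42.4% of probes at it, against 27.8% to 39.4% elsewhere.

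Gene symbols came from the platform's annotation, with 1 symbol for 8983 probes, several for 1 and none for 1028. For listed genes with several probes, the tested probe with most arrays over the common floor was used, and the lowest probe number among equals. Comparisons used the package limma, version 3.58.1, under R 4.3.3 (3 group means, eBayes, two-sided, Benjamini-Hochberg over 5710 probes, threshold 0.05), tested on simulated data. Named from each list were the 4 genes with the smallest p against control for each treatment and a few fixed by name. The 6 genes and the lists were chosen with earlier results of these data known. The deviations of same-numbered arrays from their group means had correlations of 0.497, 0.247 and 0.199 in LPS and control. These were 0.508, 0.133 and 0.033 in overventilation and control, and 0.496, 0.211 and 0.038 in overventilation and LPS. No label states a pairing, and arrays of unlike number were not compared in this way. Whether the number marks a pairing is therefore not known. A difference of 3 arrays from 3 cannot go below a two-sided exact permutation p of 0.1, and the number of arrays limits the precision.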

Additional observations from a re-analysis of the deposited data

How the results depend on the processing

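Of 108 values of the 6 genes in each comparison over 18 alternatives, 66 after overventilation against control, 58 after LPS against control and 66 between both treatments differed from the reported value, and the others repeat it, mostly because the alternative cannot move a mean of these arrays. Of those that differed, 66, 58 and 63 kept the sign. An offset in place of the floor gave 1.39 for Ifit1, 1.42 for Irgm1 and 0.51 for Isg20 after overventilation and 0.74 for Isg20 after LPS. It also gave 0.80 for Mx1, with a 95% interval of -0.13 to 1.73, 0.97 for Stat2 and 2.23 for Mx2 after overventilation, and 0.81 for Irgm1, with an interval of -0.08 to 1.7, 0.37 for Stat2, 1.2 for Mx1, 1.35 for Mx2 and 1.54 for Ifit1 after LPS. It assumes that the lowest array of each gene lies at the floor. The number of probes called against control after overventilation was 1 with the offset, and leaving out 1 array at a time gave 0 to 290, the 290 without overventilation replicate 2. The same gave 0 to 1 probes after LPS, and 0 to 226 for overventilation against LPS, the 226 also without overventilation replicate 2. Of the 62 other pathway genes, 14 to 31 lay above all controls after overventilation when 1 array was left out, and 4 to 23 after LPS. The 14 and 4 are also the counts with all arrays (9.12% and 2.24% of all probes). The 31 and 23 came without control array 2, with the shares given above. Above all LPS arrays lay 2 to 12 genes, 2 with all arrays (5.71% of all probes) and 12 without LPS array 2 (13.4%). With quantile normalization these counts were 8, 7 and 1 (4.71%, 3.56% and 3.7% of all probes). With arrays centred on their median the count after LPS was 10 (3.22%). With no filter, where genes at the floor count as well, the median of the pathway genes after overventilation was 0.04.

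With the replicate block the count of probes called stayed at 0 in each comparison, and group differences were as without it. Standard errors of Ifit1 fell to 0.36. The interval of Stat2 between overventilation and LPS was 0.08 to 1.81, the one of the 6 that left out 0. The block rests on the replicate number alone, which no label gives as a pairing.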
